A study of Saccharomyces cerevisiae with 40 samples.

Results

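IMD2, IMD3, IMD4 and GUA1 encode the enzymes that turn inosine monophosphate (IMP) into guanosine monophosphate (GMP) in budding yeast, Saccharomyces cerevisiae. Their messenger RNA levels were followed in cultures given a single amino acid in excess. The members are the rows of the deposited table that carry these 4 gene names, 4 of its 6462 genes, and each name matched 1 row. They were chosen by their measured values in these libraries, with earlier results known, in which their differences from the control were seen. Their levels and differences are therefore a description and carry no test.

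The labels give 40 libraries of poly(A) RNA in 10 groups of 4. In 9 groups a single amino acid was supplied: alanine (Ala), cysteine (Cys), glycine (Gly), isoleucine (Ile), methionine (Met), phenylalanine (Phe), threonine (Thr), tryptophan (Trp) or valine (Val). The last group is the control (Ctrl). Every group holds a library of each of the batches A, B, C and D. All groups are labelled as yeast cultures, and the sources used here do not give strain, genotype, medium, dose or length of exposure. Doses may therefore differ between amino acids.

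Guanine nucleotides are made from IMP, the common precursor of the purines. IMP dehydrogenase, the rate-limiting enzyme of the branch, oxidises IMP to xanthosine monophosphate, and Imd2, Imd3 and Imd4 are its forms in yeast. GMP synthetase, encoded by GUA1, then converts xanthosine monophosphate into GMP, and kinases bring it to GTP, the substrate of RNA polymerases and of the translation machinery. IMD2 is the form known to rise when guanine nucleotides run short, as under the drug mycophenolic acid. Its promoter can start transcripts at sites upstream, which are ended early by the Nrd1, Nab3 and Sen1 proteins, or at a site further downstream that gives the full message.

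The 3 IMD genes are close copies. Their coding sequences, read from the RefSeq R64 genome by systematic name, were 88.9% identical between IMD2 and IMD3, 83.0% between IMD3 and IMD4 and 79.8% between IMD2 and IMD4. Upstream of the start codon, the longest word shared by IMD2 and IMD3 between 300 and 100 bases upstream is 15 bases long. These stretches of 60 bases are shown because they set the member that varied most beside its closest copy among the members and beside GUA1. They lie at chrVIII:554165-554224 for IMD2 (plus strand, 231 to 172 bases before the start codon), at chrXII:1002302-1002361 for IMD3 (plus strand, 255 to 196 bases before it) and at chrXIII:701498-701557 for GUA1 (plus strand, 292 to 233 bases before it). The positions are those of R64, whereas the authors' own build is not named in the labels or the table. Capitals mark the shared 15-base word in IMD2 and IMD3, and in GUA1 the core TGACTC that the activators Gcn4 and Bas1 bind.
IMD2: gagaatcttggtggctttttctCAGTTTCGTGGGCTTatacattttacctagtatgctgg
IMD3: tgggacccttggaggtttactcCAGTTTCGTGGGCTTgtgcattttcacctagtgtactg
GUA1: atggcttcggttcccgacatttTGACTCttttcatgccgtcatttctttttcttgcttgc
Searched on both strands, the 15-base word occurred in 2 of 6007 upstream regions of 300 bases (0.0333%), those of IMD2 and IMD3. The core TGACTC occurred in 466 of them (7.76%). GUA1 held 1 copy, and the regions of IMD2, IMD3 and IMD4 held none. A match or its absence describes these letters in this window and nothing more.

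By estimate, 5555866 to 17928682 reads per library fell on genes (median 8736145.5). Their normalized reads summed to 7278922 to 9979201. Estimated reads behind the members' values ranged from 316 to 4384 for IMD2, from 4056 to 17352 for IMD3, from 2973 to 15403 for IMD4 and from 6485 to 27342 for GUA1. All of these were whole numbers of reads in every library. The library Phe C correlated least with its own group (mean r = 0.969 across genes), and it lay below the Phe mean in all 4 members. Values are the authors' normalized reads, and log2 differences are on the log2(value + 1) scale with the standard error (SE) of a limma fit over all 40 libraries. In such bulk cultures, fewer cells carrying a transcript and less of it per cell cannot be told apart.

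Per kilobase of coding sequence, GUA1 was the most abundant member in the control, with 9157 normalized reads, followed by IMD3 with 5969, IMD4 with 4932 and IMD2 with 806. IMD2 was thus the scarcest of the 3 IMP dehydrogenase messages and the one whose level varied most between groups. Its highest group mean was 6.71 times its lowest, against 1.90 times for IMD3, 1.79 times for IMD4 and 1.76 times for GUA1.

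**Figure D1:**
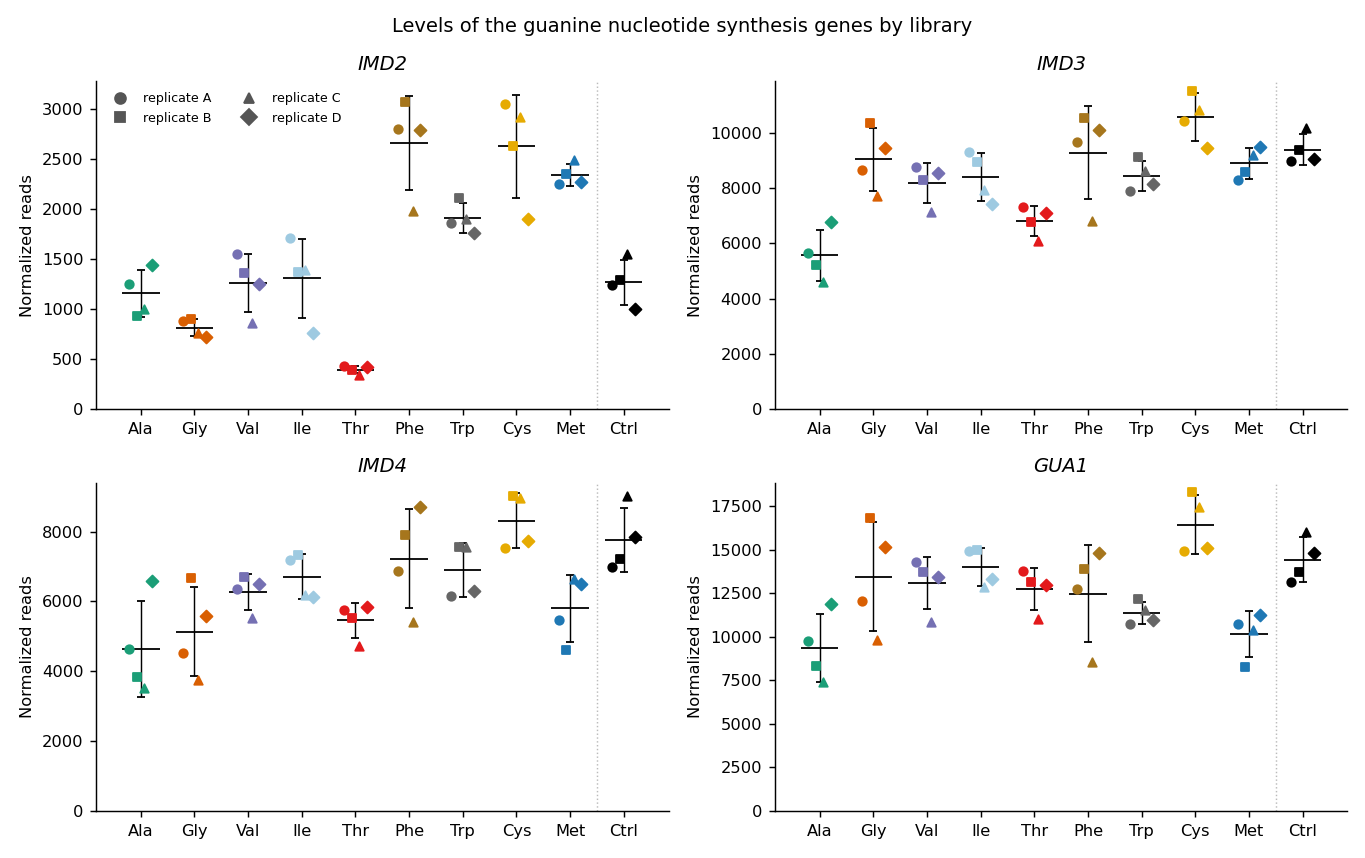
Normalized reads of IMD2, IMD3, IMD4 and GUA1 in each library (points, with a shape for each batch) by group, with the group mean (bar) and SD over 4 libraries (whisker). The Thr libraries of IMD2 sit between 346 and 430 normalized reads and those of Phe between 1979 and 3064, while the 4 Ctrl libraries sit between 997 and 1551.

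IMD2 was highest in Phe, Cys, Met and Trp. In the Phe libraries A to D it had 2798, 3064, 1979 and 2793 normalized reads, and in the Cys libraries 3048, 2630.0, 2920 and 1901. The Met libraries held 2249, 2351, 2490.1 and 2269.9, and the Trp libraries 1861, 2112, 1896 and 1758, against 1236, 1286, 1551 and 997 in the Ctrl libraries. All 16 libraries of these amino acids lay above the highest Ctrl library, batch C. The group means were 2658 ± 470.4 in Phe, 2625 ± 513 in Cys, 2340.0 ± 109 in Met and 1907 ± 149 in Trp, against 1268 ± 227 in Ctrl (SD, n = 4 each). Phe, Cys and Met stood at 2.10, 2.07 and 1.85 times the Ctrl mean and Trp 50.4% above it, with log2 differences of 1.07 in Phe, 1.04 in Cys, 0.90 in Met and 0.60 in Trp (SE 0.19 in each). Without the library Phe C the log2 difference of Phe was 1.20.

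The lowest IMD2 values were those of Thr, an amino acid that yeast makes from aspartate. The Thr libraries held 430.3, 389, 346 and 419 normalized reads, and their mean of 396 ± 37.7 was 0.312 times that of Ctrl (log2 difference -1.66, SE 0.19). The Gly libraries held 879, 899, 763 and 723 normalized reads, with a mean of 816 ± 86.2 and a log2 difference of -0.62 (SE 0.19). In both groups all 4 libraries lay below the lowest Ctrl library, batch D with 997, and Thr also lay below Gly with no overlap. Leaving out each Thr or Ctrl library in turn moved the log2 difference of Thr between -1.77 and -1.56.

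Ala, Val and Ile overlapped the control in IMD2. The Ala libraries held 1254, 932, 998 and 1445 normalized reads, the Val libraries 1552, 1363, 864 and 1249, and the Ile libraries 1707, 1374, 1389 and 758. Each of these groups had a library below all of Ctrl, batch B in Ala, C in Val and D in Ile, and Val and Ile also had one above all of it. The log2 differences were -0.14 in Ala, -0.03 in Val and 0.00 in Ile (SE 0.19 in each). Ile was the least even group, with an SD of 30.4% of its mean, whereas in Met it was 4.67%.

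In order of their means, the IMD2 levels ran from Thr through Gly, Ala, Val, Ctrl, Ile, Trp, Met and Cys to Phe. Neighbours in this order did not overlap at 4 places: between Thr and Gly, Gly and Ala, Ile and Trp, and Trp and Met. Ala, Val, Ctrl and Ile overlapped in sequence, as did Met, Cys and Phe. In IMD3, IMD4 and GUA1 every group overlapped with its neighbours in the order of the means.

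IMD3, the most abundant IMP dehydrogenase message in the control, was below the control in Ala, Thr and Val. The Ala libraries held 5652, 5223, 4608 and 6776 normalized reads, the Thr libraries 7297, 6760.5, 6063 and 7097, and the Val libraries 8762, 8266, 7141 and 8519. The Ctrl libraries held 8971.5, 9355, 10178 and 9027, so that all 12 libraries of these amino acids lay below the lowest of them. Ala averaged 5565 ± 914 normalized reads, 0.593 times the 9383 ± 556 of Ctrl (SD, n = 4 each), with a log2 difference of -0.77 (SE 0.11). The log2 differences were -0.47 in Thr and -0.20 in Val. Cys had the highest mean, 10546 ± 871 normalized reads, with libraries from 9434.5 to 11515 that overlapped the control. Gly, Ile, Phe, Trp and Met overlapped it too, with means between 8384 in Ile and 9267 in Phe.

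IMD4, whose gene is interrupted by an intron that carries a small nucleolar RNA, was below the control in 5 groups. The Ala libraries held 4627, 3829, 3534 and 6572 normalized reads, the Gly libraries 4516, 6673, 3764 and 5592, and the Thr libraries 5743, 5518, 4714 and 5848. In Met they held 5462, 4611, 6648 and 6492, and in Val 6343, 6713, 5525 and 6509, against 6989, 7207, 9035 and 7843 in Ctrl. None of these 20 libraries reached the lowest Ctrl library. The means were 4640.3 ± 1368 in Ala, 5136 ± 1270.1 in Gly, 5456 ± 513 in Thr, 5803 ± 953 in Met and 6272 ± 521 in Val, against 7768 ± 919 in Ctrl (SD, n = 4 each). The log2 differences were -0.78 in Ala, -0.62 in Gly, -0.51 in Thr, -0.43 in Met and -0.31 in Val (SE 0.16 in each). Ile, Phe, Trp and Cys overlapped the control, with Cys highest at 8316 ± 794 normalized reads.

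GUA1, the GMP synthetase gene, was below the control in Ala, Met and Trp. The Ala libraries held 9794, 8351, 7391 and 11877 normalized reads, the Met libraries 10731, 8296, 10381 and 11260.0, and the Trp libraries 10756, 12181, 11545 and 10967. The Ctrl libraries held 13172, 13740.0, 16038 and 14852, all above these 12. Ala averaged 9353 ± 1951 normalized reads, 0.647 times the 14450.0 ± 1268 of Ctrl (SD, n = 4 each), with a log2 difference of -0.65 (SE 0.15). The log2 differences were -0.51 in Met and -0.34 in Trp. In Thr, where IMD2 was lowest, GUA1 averaged 12762 ± 1186 normalized reads and overlapped the control. Phe spread widely, with 12738, 13895, 8538 and 14811, and its log2 difference of -0.24 was -0.06 without the library Phe C.

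Counted by amino acid, the members lay outside the control's range as follows. In Ala 3 of the 4 members lay below the control without overlap and none above, and of all 6103 genes tested 40.5% did not overlap with it. For Gly the count was 2 below, where 23.9% of all genes did not overlap, and for Val 2 below, where 16.1% did not. Thr had 3 members below (21% of all genes did not overlap), and Ile had none either way (8.29%). Phe had 1 member above (9.54%), as did Cys (8.39%), and in both this was IMD2. In Trp 1 member, GUA1, was below and 1, IMD2, above (24.7%), and in Met 2 were below and IMD2 above (18%). These counts use values that chose the members, and nothing is read from them.

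Within batches, the log2 differences of IMD2 from the Ctrl library of the same letter in Phe were 1.18, 1.25, 0.35 and 1.49 in batches A to D, and in Thr they were -1.52, -1.72, -2.16 and -1.25. Batch C gave the lowest IMD2 difference in Phe, Thr, Gly, Val, Ala, Trp, Met and Cys, and in Ile batch D did. The Ctrl C library lay above the control mean in all 4 members, by 0.31 in IMD2, 0.12 in IMD3, 0.23 in IMD4 and 0.15 in GUA1 on the log2 scale. The C libraries of Ala, Gly, Val, Thr and Phe lay below their group means in all 4 members. The part of this batch in the differences was not tested beyond the values given here.

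The make-up of the IMP dehydrogenase messages differed between groups. IMD2 made up 13.9% ± 0.67 of the summed IMD2, IMD3 and IMD4 normalized reads in Phe, 13.8% ± 1.1 in Met, 12.2% ± 2.0 in Cys, 11.1% ± 0.52 in Trp and 10.2% ± 0.80 in Ala, against 6.86% ± 0.86 in Ctrl (SD, n = 4 each). All 20 libraries of these groups lay above the highest Ctrl library at 7.47%. In Ala the IMD2 level itself overlapped the control, and IMD3 and IMD4 lay below it. In Thr the share was 3.19, 3.07, 3.11 and 3.13% in libraries A to D, below the lowest Ctrl library at 5.58%. Gly (5.53% ± 0.85), Val (7.93% ± 1.2) and Ile (7.86% ± 1.8) overlapped the control. The shares count normalized reads and not enzyme.

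IMD3 took a larger share in Gly, with 60.5% ± 2.3, and in Thr, with 53.8% ± 0.66, against 51.0% ± 1.6 in Ctrl. The share of IMD4 was smaller in Gly (33.9% ± 3.0), Met (33.9% ± 3.0) and Phe (37.7% ± 2.1) than in Ctrl (42.1% ± 1.9), without overlap. The ratio of IMD4 to IMD3 was 0.562 ± 0.070 in Gly and 0.651 ± 0.081 in Met, against 0.826 ± 0.060 in Ctrl. In the other 7 amino acids it overlapped the control. Gly thus held the abundant IMD3 at 9027 ± 1129 normalized reads, overlapping the 9383 ± 556 of Ctrl, while IMD2 and IMD4 lay below the control.

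The summed IMP dehydrogenase messages were below the control in Ala (11363 ± 2492 normalized reads), Thr (12656 ± 1083) and Val (15702 ± 1457), against 18419 ± 1594 in Ctrl. In Phe, Cys, Met and Trp the sum overlapped the control. Set against GUA1, the sum was 1.69 ± 0.17 times in Met, 1.55 ± 0.09 in Phe and 1.52 ± 0.04 in Trp, all above the 1.28 ± 0.05 of Ctrl. It was 0.99 ± 0.03 in Thr, below every Ctrl library, and 1.21 ± 0.03 in Ala, where both steps of the branch were low together. Cys, with 1.31 ± 0.07, overlapped the control.

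**Figure D2:**
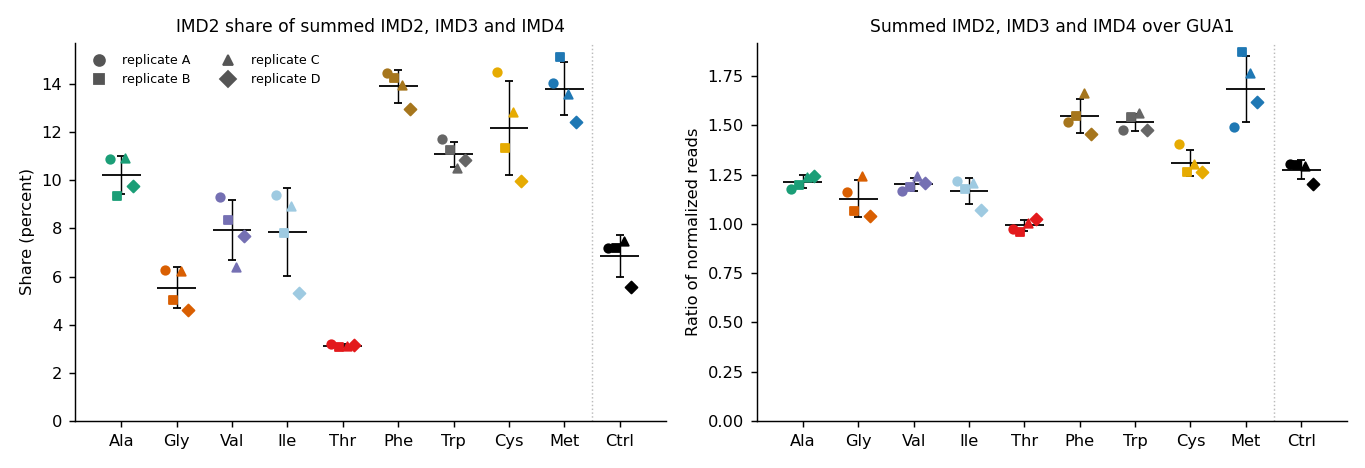
Left, the share of IMD2 in the summed normalized reads of IMD2, IMD3 and IMD4, in percent. Right, that sum divided by the normalized reads of GUA1. Points are libraries with a shape for each batch, bars are means and whiskers SDs over 4 libraries, and the Thr libraries lie lowest in both panels.

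Within groups the members varied together. Over the 40 libraries as deviations from their group means, Pearson's r was 0.94 between IMD4 and GUA1, 0.91 between IMD3 and GUA1, 0.88 between IMD3 and IMD4 and 0.74 between IMD2 and IMD3. Between IMD2 and GUA1 it was 0.54. Genes outside the branch reached like values within groups, 0.94 between IMD4 and RPA135 and 0.93 between GUA1 and KAP123. Others were lower, as RPA14 with IMD3 at 0.67. Varying together within groups was thus not particular to the members. Over the 10 group means IMD2 and GUA1 had r = -0.01, whereas IMD3 and IMD4 had r = 0.78 and IMD4 and GUA1 had r = 0.70. The groups share batches and the libraries differ in depth, so these values are descriptions with no p. The ratio of IMD2 to IMD3 varied less than the levels in Phe, at 0.287 ± 0.007 over its 4 libraries. The SD of IMD2 itself was 17.7% of its mean there. Relative to its mean, the ratio varied more than IMD2 in Gly (ratio 0.091 ± 0.012, SD of IMD2 10.6%). The same held in Met (ratio 0.264 ± 0.017, SD of IMD2 4.67%), and in the remaining groups the ratio varied less.

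**Figure D3:**
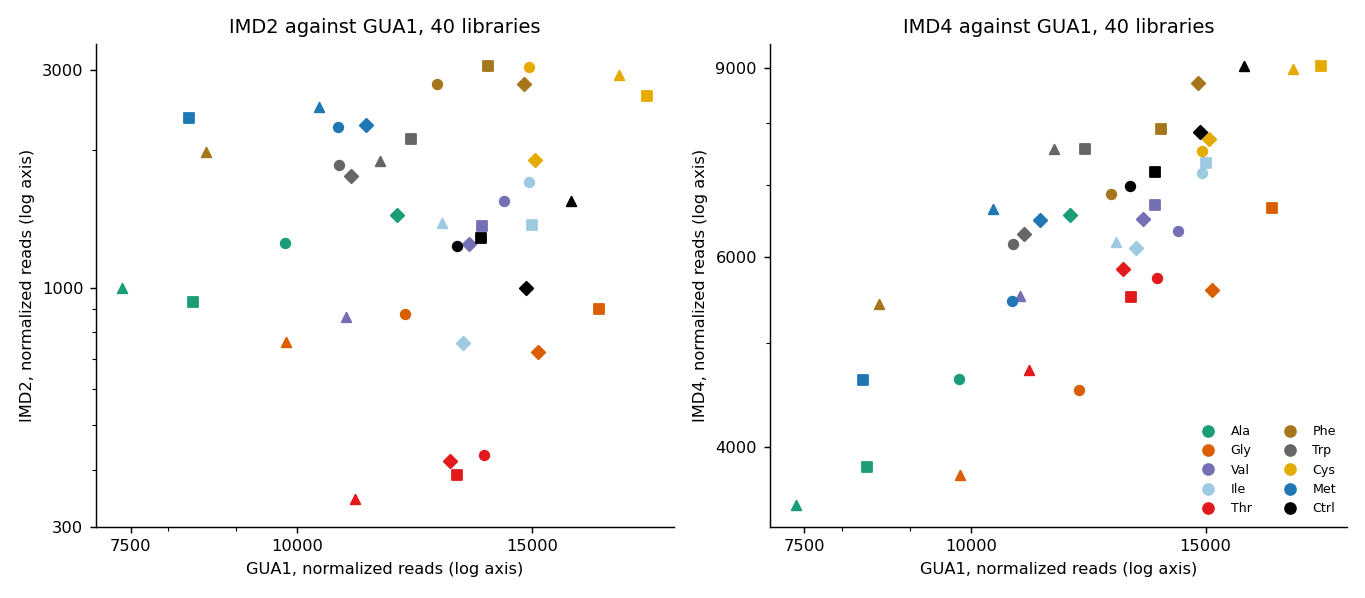
IMD2 (left) and IMD4 (right) against GUA1 in the 40 libraries, in normalized reads on log axes, with a colour for each group and a shape for each batch. IMD4 and GUA1 climb together over all libraries (r = 0.79), whereas the IMD2 points spread into groups at like GUA1 levels (r = 0.09).

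The genes whose pattern over the 40 libraries was most like that of each member were ranked among 5791 genes with a mean of at least 20. For IMD2 these were GCN4, the activator of amino acid synthesis genes (Pearson's r = 0.74), CPR8 (0.73), a cyclophilin, and CDC20 (0.70), an activator of the anaphase-promoting complex. IMD3 was followed most closely by RPA14 (0.85), a subunit of RNA polymerase I, HMG1 (0.83), an enzyme of sterol synthesis, and PSR1 (0.83), a plasma membrane phosphatase. IMD4 had PWP2 (0.92), a ribosome assembly factor, AFG2 (0.91), an ATPase of ribosome maturation, and RPA135 (0.91), the second largest subunit of RNA polymerase I. GUA1 had TRM1 (0.93), a tRNA methyltransferase, KAP123 (0.93), a nuclear import receptor, and PRT1 (0.92), a subunit of the translation initiation factor eIF3. These are ranks of likeness over libraries that share batches, with no p.

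IMD1, a copy of IMD2 broken into the reading frames YAR073W and YAR075W, was hardly seen. YAR073W had 0 to 7.82 normalized reads and was at 0 in 9 libraries, and YAR075W had 0 to 4.79 and was at 0 in 15. Their sum came to at most 2.22% of IMD2 in a library. The sources used here do not say how reads that match several copies were counted, so a part of the IMD values is uncertain for this reason.

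Around the branch, 44 genes of purine nucleotide metabolism and its control were tested with limma on log2(value + 1), with Benjamini-Hochberg adjustment over 6103 genes and an adjusted p under 0.05 as the threshold. The lists were drawn up with earlier results of these data known. All comparisons share the same 4 Ctrl libraries. In Ala 7 of the 44 rose and 21 fell, against 23.1% and 24.2% of all genes tested. In Gly 14 rose and 6 fell (14% and 12.2% of all genes). Their median log2 differences were -0.28 in Ala and 0.15 in Gly, beside -0.01 and -0.02 over all genes tested.

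The other amino acids moved fewer of them. Thr had 3 that rose and 5 that fell (5.87% and 5.33% of all genes), Trp 3 and 8 (6.32% and 6%), and Met 4 and 3 (6.06% and 3.74%). Phe had none that rose and 3 that fell (3.7% and 1.9%), Cys 1 and 1 (1.29% and 1.54%), and Val none that rose and 2 that fell (2.51% and 2.88%). In Ile no gene of the 44 passed limma's test (1.26% and 0.655% of all genes rose and fell). Of the 44, 7 had an unadjusted limma p under 0.05 there, and the share of all genes at that threshold was not counted. With the batch as a block in limma, 6 of the 44 passed in Val and 1 in Ile. The count in Phe was 0 without the libraries Phe C, Ctrl C or Ctrl D, and 1 without Phe A or Phe B. In Trp it was 5 without Trp A, 6 without Trp D and 7 without Ctrl A or Ctrl B, of 11 in all.
The count in Thr was 4 without Ctrl A, of 8, and in Val it was 6 without Ctrl C, of 2 with all libraries. In Ile it was 1 without Ctrl C. Met lost most of its 7, with 2 without Ctrl D, 3 without Met B, Ctrl A or Ctrl C, and 4 without Met C. Cys was down to 1 of 2 without Cys B, Cys C, Cys D, Ctrl A, Ctrl B or Ctrl C.

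**Figure D4:**
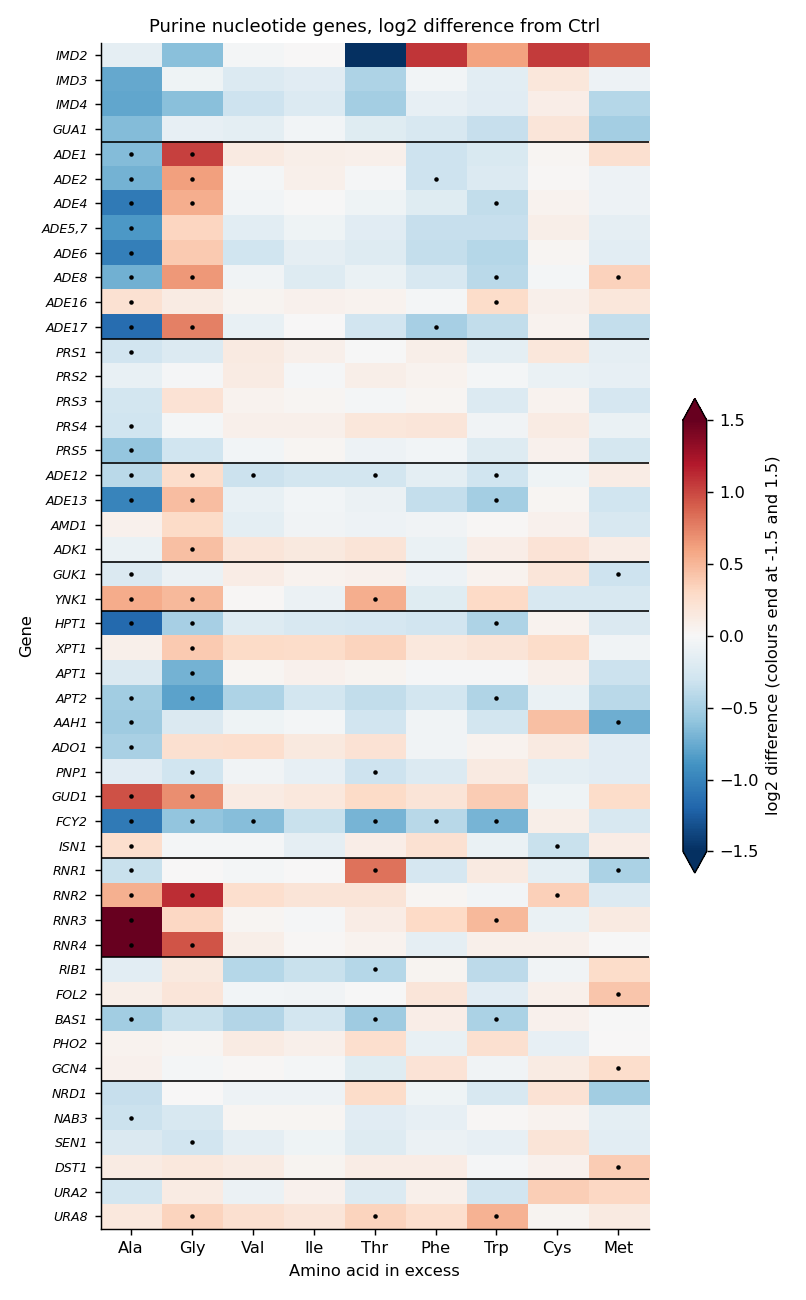
Log2 difference from Ctrl of the 4 members (top) and the 44 other genes, ordered by list, in each amino acid. Dots mark genes that passed limma's test at an adjusted p under 0.05, and the members carry none because they were not tested. Colours end at -1.5 and 1.5, which IMD2 in Thr, RNR3 in Ala and RNR4 in Ala go beyond.

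The path to IMP, which feeds the branch, moved in opposite directions in Ala and Gly. ADE13 was counted with the genes that lead to adenine nucleotides, not among the 8 listed here. Of these 8, 7 fell and 1 rose in Ala, and 5 rose and none fell in Gly, with median log2 differences of -0.79 and 0.58. Of all genes tested, 24.2% fell and 23.1% rose in Ala, and 14% rose and 12.2% fell in Gly. ADE4, which encodes the enzyme of the first committed step, had 2502 ± 413 normalized reads in Ala and 5197 ± 415 in Ctrl (log2 difference -1.06, SE 0.12, limma adjusted p = 6.5e-09). ADE17, one of a pair of genes for the enzyme that closes the ring of IMP, had 10974 ± 3018 in Ala and 23807 ± 3664 in Ctrl (log2 difference -1.14, SE 0.15, limma adjusted p = 1.0e-07). The same gene rose in Gly to 40100 ± 5058 (log2 difference 0.76, SE 0.15, limma adjusted p = 0.00019). ADE1, of an earlier step, rose in Gly as well, to 15096 ± 1252, against 7454 ± 844 in Ctrl (log2 difference 1.02, SE 0.11, limma adjusted p = 3.1e-09). GUA1 lay below the control in Ala as well, and in Gly it overlapped the control. The ADE16 call, the 1 rise in Ala, was lost without Ala A, Ala B, Ctrl A or Ctrl C.

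Smaller changes of the path to IMP were seen in Phe, Trp and Met. In Phe ADE2 and ADE17 fell (log2 differences of -0.32 and -0.50, limma adjusted p = 0.021 and 0.035). Without Phe C, Ctrl C or Ctrl D, or when only the 2 groups compared were fitted, both calls were lost, and that of ADE17 also without Phe A or Phe B. In Trp ADE4 fell (log2 difference -0.37, limma adjusted p = 0.035), a call that was lost without Trp A, Trp C, Trp D, Ctrl A, Ctrl B or Ctrl C. ADE16 rose in Trp (log2 difference 0.28, limma adjusted p = 0.023), which was lost without Trp A, Trp B, Trp D, Ctrl A or Ctrl C and with libraries rescaled to equal totals. ADE8 rose in Met (log2 difference 0.35, limma adjusted p = 0.022), which was lost without Met C, Ctrl A or Ctrl D. ADE8 fell in Trp (1420.1 ± 51.6 normalized reads in Trp and 1884 ± 169 in Ctrl, log2 difference -0.40, SE 0.10, limma adjusted p = 0.0058). In Val, Ile, Thr and Cys none of these 8 genes passed by limma, and 0 had an unadjusted p under 0.05. In the groups whose IMD2 lay below the control, these 8 genes had median log2 differences of -0.08 in Thr and 0.58 in Gly. Where IMD2 lay above it, the medians were -0.31 in Phe, -0.36 in Trp, -0.08 in Met and 0.04 in Cys. A link between the path and IMD2 was not tested. PRPP synthetase makes the sugar phosphate that the path starts from, and 3 of its 5 genes fell in Ala (24.2% of all genes did). The count was 1 without Ala C, without Ctrl C or with libraries rescaled to equal totals. PRS5, 1 of the 3, had a log2 difference of -0.58 (SE 0.13, limma adjusted p = 0.00032). None of the 5 passed by limma in the other amino acids, where an unadjusted p under 0.05 was reached by 1 gene in Gly, 2 in Met and 0 elsewhere.

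IMP also leads to adenine nucleotides through ADE12 and ADE13. In Ala both fell, ADE13 to 8061 ± 1443 normalized reads, against 15856 ± 2048 in Ctrl (log2 difference -0.98, SE 0.13, limma adjusted p = 3.5e-07), and ADE12 with a log2 difference of -0.40 (SE 0.08, limma adjusted p = 0.00012). ADE12 fell in Val, Thr and Trp too (log2 differences of -0.33, -0.27 and -0.30, limma adjusted p = 0.0099, 0.022 and 0.012 in that order). These calls were lost without Val C in Val, without Thr C, Ctrl A or Ctrl B in Thr, and without Trp A in Trp. ADE13 fell in Trp (log2 difference -0.51, limma adjusted p = 0.0092), which was lost without Trp A. In Gly 3 of the 4 genes of this group rose (14% of all genes did). ADK1, the adenylate kinase, had a log2 difference of 0.45 there (SE 0.07, limma adjusted p = 1.4e-05) and ADE13 one of 0.46 (limma adjusted p = 0.010). ADE13 was higher in Gly than in Ctrl in 3 of the 4 batches. ADE12, with 0.26 (limma adjusted p = 0.016), did not pass without Gly D or Ctrl C or when only the 2 groups compared were fitted.

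The kinases that make GTP from GMP moved apart in Ala. GUK1, the guanylate kinase that acts on GMP, fell to 1679 ± 123 normalized reads in Ala, against 1954 ± 129 in Ctrl (log2 difference -0.22, SE 0.08, limma adjusted p = 0.027). It fell in Met as well, to 1582 ± 129 (log2 difference -0.31, SE 0.08, limma adjusted p = 0.014). The GUK1 call was lost in Ala without Ala C, Ala D or Ctrl C or when only the 2 groups compared were fitted, in Met without Met B or Ctrl C, and in both with libraries rescaled to equal totals, where the difference in Ala was -0.03. YNK1, the nucleoside diphosphate kinase, rose in Ala to 972 ± 131 normalized reads, against 658 ± 57.6 in Ctrl (log2 difference 0.56, SE 0.16, limma adjusted p = 0.0045). It rose in Gly and Thr too (log2 differences of 0.49 and 0.55, limma adjusted p = 0.020 and 0.019), calls that were lost without Gly A, Gly C or Ctrl C in Gly and without Thr D or Ctrl C in Thr.

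Salvage and uptake genes mostly fell where they passed. FCY2, the purine-cytosine permease, fell in Ala, Gly, Val, Thr and Trp, with log2 differences of -1.06, -0.60, -0.64, -0.70 and -0.70 (SE 0.13, limma adjusted p = 4.3e-08, 0.00076, 0.0014, 0.00023 and 0.00029 in that order). In Phe its fall by 0.42 on the log2 scale (limma adjusted p = 0.047) was lost on leaving out any 1 Phe or Ctrl library other than Phe D, with no filter on low values and when only the 2 groups compared were fitted. Its level was 6521 ± 1260.1 normalized reads in Ala, 9009 ± 1857 in Gly, 8604 ± 652 in Val, 8277 ± 841 in Thr and 8295 ± 1092 in Trp, against 13392 ± 560.4 in Ctrl. HPT1, which recovers GMP and IMP from guanine and hypoxanthine, fell in Ala to 2000.4 ± 142, against 4495 ± 231 in Ctrl (log2 difference -1.17, SE 0.12, limma adjusted p = 7.3e-10). It fell in Gly by 0.50 and in Trp by 0.47 on the log2 scale (SE 0.12, limma adjusted p = 0.0020 and 0.0071). In Gly the adenine phosphoribosyltransferase gene APT1 and its paralogue APT2 fell, by 0.71 and 0.81 on the log2 scale. APT2 fell in Ala by 0.52 (limma adjusted p = 0.0044, or 0.063 with libraries rescaled to equal totals) and in Trp by 0.46 (limma adjusted p = 0.036), and the call in Trp was lost on leaving out any 1 Trp or Ctrl library other than Trp B and Trp C. Over all 10 genes of the list 5 fell in Ala and 5 in Gly (24.2% and 12.2% of all genes fell). With libraries rescaled to equal totals 3 fell in Ala. In each of Ala and Gly a further 2 rose (23.1% and 14% of all genes rose). In Ala 1 of these was lost without Ala A, Ala B, Ctrl C or Ctrl D, and in Gly 1 was lost without Gly A, Ctrl A or Ctrl B and both without Gly C or Ctrl D.

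Ribonucleotide reductase, which draws nucleotides into DNA precursors, had 3 of its 4 genes rise in Ala and 2 in Gly. Of all genes tested, 23.1% rose in Ala and 14% in Gly. RNR1 fell in Ala, a call that was lost without Ala A, Ala C, Ctrl C or Ctrl D and with libraries rescaled to equal totals. RNR3, its damage-inducible large subunit, had 444 ± 63.6 normalized reads in Ala and 85.3 ± 16.9 in Ctrl (log2 difference 2.37, SE 0.16, limma adjusted p = 1.3e-14). RNR4 had 9575 ± 1114 in Ala and 3281 ± 313 in Ctrl (log2 difference 1.54, SE 0.10, limma adjusted p = 3.4e-15). In Gly RNR2 and RNR4, both of the small subunit, rose by 1.10 and 0.94 on the log2 scale (limma adjusted p = 2.5e-13 and 2.4e-09). RNR2 also rose in Ala by 0.54 (limma adjusted p = 1.6e-06) and in Cys by 0.36 (limma adjusted p = 0.0057, or 0.13 when only the 2 groups compared were fitted). RNR3 rose in Trp by 0.49 on the log2 scale (limma adjusted p = 0.037), which was lost without Trp B, Trp D, Ctrl A, Ctrl B or Ctrl D and when only the 2 groups compared were fitted. RNR1, the main large subunit, rose in Thr to 7654 ± 670.3 normalized reads, against 4355 ± 497 in Ctrl (log2 difference 0.82, SE 0.13, limma adjusted p = 2.7e-05). It fell in Met by 0.48 on the log2 scale (limma adjusted p = 0.016), which was lost without Ctrl C or Ctrl D.

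Among the transcription factors of purine synthesis, BAS1, the activator of the ADE genes, fell in Thr. It had 897 ± 88.3 normalized reads in Thr and 1304 ± 184 in Ctrl (log2 difference -0.53, SE 0.14, limma adjusted p = 0.0079). It fell in Ala too, to 915 ± 155 (log2 difference -0.52, limma adjusted p = 0.0025, or 0.063 with libraries rescaled to equal totals). In Trp, with 945 ± 162, it fell by 0.47 on the log2 scale (limma adjusted p = 0.020), which was lost without Trp A, Trp D, Ctrl A or Ctrl B. In Val the log2 difference of -0.44 did not pass (limma adjusted p = 0.055), and with the batch as a block it did (0.046). Its partner PHO2 had log2 differences from -0.12 in Cys to 0.26 in Thr and did not pass by limma in any amino acid, though without Thr A it passed in Thr (adjusted p = 0.014). GCN4, most like IMD2 over the 40 libraries, was not among the 3 genes most like it over the 10 group means. Its log2 differences of 0.20 in Phe, 0.13 in Cys and -0.18 in Thr did not pass (limma adjusted p = 0.18, 0.54 and 0.15). With the batch as a block, the difference in Thr passed (limma adjusted p = 0.049). In Trp, where IMD2 was above the control, GCN4 had a log2 difference of -0.05, and in Gly, where IMD2 was below it, -0.03 (limma adjusted p = 0.73 and 0.83). In Met it rose by 0.27 on the log2 scale (limma adjusted p = 0.029). That call was lost without Met B, Met D, Ctrl A, Ctrl B or Ctrl D and when only the 2 groups compared were fitted, with limma adjusted p from 0.062 to 0.076.

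Next came the genes for the proteins that end or extend IMD2 transcripts. NRD1 did not pass by limma in any amino acid, with log2 differences from -0.52 in Met to 0.28 in Thr (limma adjusted p = 0.082 and 0.40). With the batch as a block it passed in Met (limma adjusted p = 0.042). In Thr, Phe, Trp and Cys none of NRD1, NAB3, SEN1 and DST1 passed by limma, and 0 had an unadjusted p under 0.05. NAB3 fell in Ala and SEN1 in Gly (log2 differences of -0.33 and -0.29, limma adjusted p = 0.026 and 0.034). The NAB3 call was lost without Ala A, Ala B, Ala C or Ctrl D and with libraries rescaled to equal totals, that of SEN1 without Gly A, Gly C, Ctrl C or Ctrl D, and both when only the 2 groups compared were fitted. In Ala SEN1 had a log2 difference of -0.22 (limma adjusted p = 0.070), which passed with the batch as a block (0.021). DST1, the elongation factor TFIIS, rose in Met to 887 ± 46.4 normalized reads, against 683 ± 66.9 in Ctrl (log2 difference 0.38, SE 0.12, limma adjusted p = 0.044), and this was lost on leaving out any 1 Met or Ctrl library other than Ctrl B. Its values were whole numbers of reads in 22.5% of libraries, for a reason that was not tested. URA8, a CTP synthase whose start sites respond to nucleotides, rose in Trp to 956 ± 45.8 normalized reads, against 665 ± 37.4 in Ctrl (log2 difference 0.52, SE 0.09, limma adjusted p = 0.00013). It rose in Gly too (log2 difference 0.34, SE 0.09, limma adjusted p = 0.0065), and in Thr (log2 difference 0.33, limma adjusted p = 0.014), where the call was lost without Thr B or Ctrl A. Of the enzymes that draw on GTP, FOL2, of folate synthesis, had 1469 ± 228 normalized reads in Met and 1093 ± 52.3 in Ctrl. Its log2 difference of 0.41 passed by limma (adjusted p = 0.010), and without the library Met C it did not (adjusted p = 0.061). RIB1, of riboflavin synthesis, fell in Thr by 0.42 on the log2 scale (limma adjusted p = 0.038), which was lost on leaving out any 1 Thr or Ctrl library other than Thr C and Ctrl C and with libraries rescaled to equal totals. In 1 batch RIB1 was higher in Thr than in Ctrl. With the batch as a block RIB1 also passed in Trp and Val (limma adjusted p = 0.038 and 0.042).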

How the data were processed

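Per the labels' protocols, RNA of yeast cultures was freed of DNA, and 300 ng of it went through poly(A) selection into directional NEBNext libraries. STAR 2.7.8a and Partek are named per the submitters' processing notes, without a role. The deposited table holds read counts that the authors normalized, a non-negative signal. The sources used here do not give the factors, the genome build, the annotation or the counting of shared reads. In each library 88.8 to 90.9% of values up to 20000 reads lay within 0.1 read of a whole multiple of a common step. Depths were estimated from that step, and because the other values were not whole no count test was run. Groups and batch letters came from the labels, and each of the 40 columns matched a sample by name. Tests covered the 6103 of 6462 genes whose mean was 5 or more.

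Values were taken as log2(value + 1), which understates changes of genes with few reads. The test was that of limma 3.58.1 (R 4.3.3) on the 40 libraries together, with a prior variance that follows the mean level, a mean for each group and no block, adjusted by Benjamini-Hochberg at a threshold of 0.05, and it was tested on simulated data. Tables were handled in Python 3.11.15, and coding sequences were aligned with Biopython 1.88. The labels call the letters batches, which pairs the libraries. Deviations from the group means had a mean r of 0.174 for the same letter and -0.0576 for different letters, and 24 of the 36 pairs of an amino acid with Ctrl had r above 0.1. Every pair of replicates differed by more than sampling noise (chi-square per degree of freedom of at least 5.59). Since no label says how replicates were made, the p-values cover the spread among these libraries, in part perhaps technical.

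Members and gene lists were chosen with earlier results of these data known. Apart from the members, named are up to 2 genes per list and amino acid with the largest log2 differences past the threshold and 1 sign in all 4 batches, list genes given as not past it, and the 3 genes most like each member. After values were seen, some genes whose call was lost in an alternative were left out, and ADE16, and for named genes the other amino acids in which they passed, were added. The rule of 1 sign in all 4 batches does not hold for RIB1 in Thr and ADE13 in Gly. Alternatives were pseudocounts of 0.25 and 4, no filter, 2 other scalings, the batch as a block, a fit to the 2 groups compared, leaving out each library, IMD2 summed with IMD1, and likeness by rank or by group means.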

Additional observations from a re-analysis of the deposited data

Results flagged for a closer look

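In 5 groups 1 library stood far from the other three, out of 159 groups of 4 libraries examined, of which 40 were of the members. Chance flags about 1 in 20 groups. All 5 are in genes of the lists, and no group of IMD2, IMD3, IMD4 or GUA1 was among them. In APT2 the library Trp D was the low one, with 307, 313, 311 and 234 normalized reads in Trp A to D and a gap to the nearest library of 0.933 of the range. In the other four Ctrl C was the high one. APT1 had 1257, 1256, 1506 and 1254 normalized reads in Ctrl A to D, and the gap to the nearest library was 0.988 of the range. GCN4 had 11018, 10884, 11976 and 10910.0, with a gap of 0.877 of the range. PRS1 had 3476, 3479.5, 4189 and 3502, with a gap of 0.963 of the range. ADE13 had 14441, 15107, 18896 and 14980.0, with a gap of 0.851 of the range. The calls of APT1 in Gly and of ADE13 in Ala were kept without Ctrl C, whereas that of PRS1 in Ala (limma adjusted p = 0.029) was lost without it (limma adjusted p = 0.12). The call of APT2 in Trp was lost without Trp D (limma adjusted p = 0.17).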

How the results depend on the processing

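No difference of a member that lay outside the control's range changed sign in any alternative, and 1 moved by more than the spread between replicates: IMD3 in Ala was -0.58 with libraries rescaled to equal totals. Under that scaling the median log2 difference over all genes in Ala was 0.18, beside -0.01 as deposited, so differences in Ala moved with it. IMD2 in Ala, which overlapped the control, was 0.05 under it. The count of the 44 pathway genes called was 5 in Val and 1 in Ile with equal totals, 6 in Val and 1 in Ile with the batch as a replicate block, and 5 in Val, 1 in Ile, 0 in Phe and 0 in Cys when only the 2 groups compared were fitted. Leaving out each library gave counts of 21 to 32 in Ala, 17 to 21 in Gly, 2 to 6 in Val, 0 to 1 in Ile, 4 to 9 in Thr, 0 to 3 in Phe, 5 to 11 in Trp, 1 to 2 in Cys and 2 to 6 in Met. The block changed no other count over the 44 genes by over 1.5 times and left the members' differences as they were, since each group holds each batch once. No call of the 44 genes was lost with the block, and some were gained in Ala, Gly, Val, Ile, Thr, Trp and Met. Among those gained were ADE6 in Gly and Trp, AMD1 in Gly, PRS3 in Ala, XPT1 in Thr, and APT1 and APT2 in Met. Of the genes most like IMD2, 1 of 3 was kept by rank and 0 over the 10 group means. The fewest estimated reads behind a member's value were the 316 of IMD2 in 1 library, so depth limits IMD2 most where it was low. The cause was not tested.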
